A study of Mus musculus with 12 samples.

Results

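The 8 genes described here are Stard4 and 7 genes of cholesterol synthesis and its control: Hmgcs1, Sqle, Lss, Dhcr7, Insig1, Srebf2 and Scap. They were chosen by name, as 8 of the 22801 genes measured at metaphase II, with the differences between genotypes already known. Their values in the genotype comparison are therefore a description, and nothing is read from how many of them changed. RNA had been sequenced from tubes of 15 mouse oocytes of the strain C57BL/6, collected at postnatal day 35. All groups carried the genotype Lsm14bfl/fl, that is 2 floxed alleles of Lsm14b, a gene for an RNA-binding protein of cytoplasmic granules. The controls (WT) had no Cre and the conditional knockouts (CKO) had in addition Gdf9-Cre, which is expressed in oocytes and leaves the other ovarian cells with intact alleles. Each genotype had 3 libraries at the germinal vesicle stage (GV, the arrested immature oocyte) and 3 at MII (metaphase II, when the egg is mature), 12 libraries in all. The labels do not say how many females gave the oocytes of a tube, so the errors measure the spread between these tubes.

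Cells obtain cholesterol by making it from acetyl-CoA through mevalonate, squalene and lanosterol, or by taking it up from lipoproteins. The transcription factor SREBP2, encoded by Srebf2, raises both routes when sterols in the endoplasmic reticulum run low. SCAP carries SREBP2 to the Golgi for cleavage, INSIG1 holds SCAP back when sterols are plentiful, and the STARD4 protein moves cholesterol between membranes through the cytosol. Mouse oocytes are known for weak cholesterol synthesis of their own and for a supply of cholesterol from the surrounding cumulus cells.

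RefSeq (GRCm38.p6) gave promoters for 6 of the 8 genes, and 4 of them are shown because they belong to classical SREBP2 target genes and hold the matches described. The 250 bases before the start of transcription were searched on both strands for a core of the sterol regulatory element (TCACNCCA) and for the NF-Y box (CCAAT), and capitals mark these matches. The letters of the core were chosen with the sequences in view: the longer form TCACNCCAC stood in 1 of the 6 genes with a promoter, Hmgcs1, and in 1.22% of all genes. The promoters are those of Hmgcs1 (chr13:119690101-119690350), Srebf2 (chr15:82147019-82147268), Insig1 (chr5:28071162-28071411) and Dhcr7 (chr7:143829964-143830213), all on the plus strand. Dhcr7 has 3 starts in RefSeq, and the start shown is the 1 that held an NF-Y box.
Hmgcs1: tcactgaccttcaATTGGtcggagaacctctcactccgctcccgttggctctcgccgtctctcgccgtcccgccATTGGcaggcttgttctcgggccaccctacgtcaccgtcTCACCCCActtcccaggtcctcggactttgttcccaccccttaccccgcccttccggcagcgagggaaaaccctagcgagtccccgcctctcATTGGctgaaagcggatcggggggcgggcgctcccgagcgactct
Srebf2: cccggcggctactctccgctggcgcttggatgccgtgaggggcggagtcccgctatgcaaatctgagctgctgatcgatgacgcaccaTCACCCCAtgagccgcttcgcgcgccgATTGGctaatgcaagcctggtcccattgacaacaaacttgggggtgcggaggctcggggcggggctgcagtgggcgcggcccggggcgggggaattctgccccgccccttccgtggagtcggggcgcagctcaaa
Insig1: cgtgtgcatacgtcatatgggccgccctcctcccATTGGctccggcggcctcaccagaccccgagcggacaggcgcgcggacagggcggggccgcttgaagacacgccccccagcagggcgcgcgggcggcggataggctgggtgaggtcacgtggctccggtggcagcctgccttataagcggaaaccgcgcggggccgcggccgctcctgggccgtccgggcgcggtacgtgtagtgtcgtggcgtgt
Dhcr7: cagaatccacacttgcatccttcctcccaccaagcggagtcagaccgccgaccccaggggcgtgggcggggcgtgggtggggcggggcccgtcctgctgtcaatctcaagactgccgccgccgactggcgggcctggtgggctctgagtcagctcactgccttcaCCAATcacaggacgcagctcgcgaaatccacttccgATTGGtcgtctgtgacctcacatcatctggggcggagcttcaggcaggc
The core stood in the promoters of Hmgcs1 and Srebf2, 2 of the 6 genes, and in at least 1 promoter of 4.2% of 27025 genes. In Hmgcs1 it lay 137 to 130 bases before the start and in Srebf2 162 to 155 bases before it, in both as TCACCCCA. An NF-Y box stood in 5 of the 6 genes, all except Scap, against 37.5% of all genes. Hmgcs1 had 3 such boxes, the Dhcr7 start shown had 2, and Insig1, Lss and Srebf2 had 1 each. An E-box (CACGTG), a further site that SREBP proteins can bind, stood in Insig1, in 1 start of Scap and in a Dhcr7 start other than the one shown, against 6.86% of all genes. These matches are letters in a window and do not show binding.

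The targeted gene followed its labels. Lsm14b had 11051 ± 524 normalized read counts in WT and 908 ± 80.9 in CKO at MII, and 22931 ± 6257 and 1436 ± 164 at GV (SD, n = 3 each). The MII libraries held 23077585 to 124872889 reads, with every WT library deeper than every CKO library, while the GV table held selected genes and its depth is unknown. WT replicate 3 at MII stood apart: its Spearman correlation with each other library, over 20388 genes, was 0.847 to 0.877, and the other 5 reached 0.899 to 0.940 among themselves. All values below are normalized read counts, that is reads divided by a size factor of the library set by the authors, and the GV and MII tables were scaled separately. Values are given in the order of the replicate numbers, which are 1, 2 and 4 at GV, and at MII 1, 2 and 3 for WT and 2, 3 and 4 for CKO. As tubes of oocytes were sequenced in bulk, less RNA per oocyte and fewer intact oocytes in a tube cannot be told apart.

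Stard4, the sterol transfer gene, had CKO values above the whole WT range at GV and at MII. The GV libraries of WT held 2258, 3870 and 3386 normalized counts and those of CKO 10467, 11099 and 11511. The groups did not overlap, and the 3 CKO libraries lay close together while WT replicate 1 was the lowest. In the authors' deposited table the log2 fold change at GV was 1.80 (SE 0.21). At MII the WT libraries held 566, 294 and 589 normalized counts, from 960, 491 and 1148 reads, and the CKO libraries 3479, 4507 and 3953, from 2527, 1780 and 2870 reads. Each shallower CKO library thus held more Stard4 reads than any of the deeper WT libraries. On log2(normalized count + 1), the limma difference at MII was 3.10 (SE 0.37), with a WT mean of 483 ± 164 and a CKO mean of 3980 ± 514 (SD, n = 3 for both). The difference of log2 means was 1.83 at GV and 3.10 at MII, and whether these differ was not tested.

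**Figure D1:**
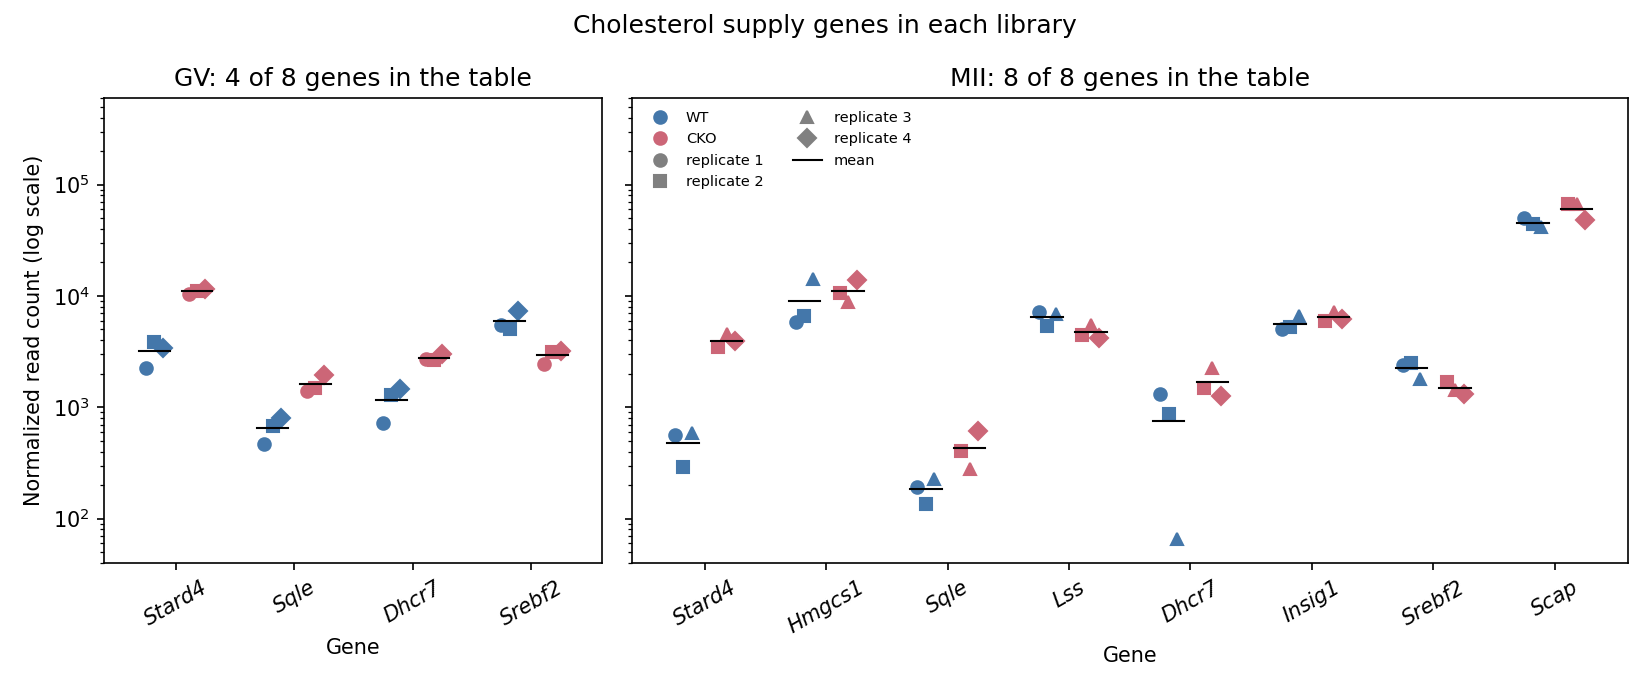
Normalized read count (log axis) of each gene in each library, at GV on the left and at MII on the right, with WT in blue, CKO in red, a marker shape per replicate number and a line at the group mean. Stard4 in CKO lies above every WT library at both stages, and WT replicate 3 at MII is far below the other Dhcr7 values.

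At MII, limma called 1 of the 8 genes at an adjusted p under 0.05 over all 20388 tested genes, Stard4, where 1.51% of all tested genes were called in either direction, 0.52% higher and 0.991% lower. Stard4 was also the 1 gene of the 8 with an unadjusted p under 0.05, beside 16% of all tested genes, and the 1 called in the authors' deposited MII table, beside 10.5%. The adjusted p of Stard4 was 0.0098. Its log2 difference stayed between 2.78 and 3.28 when any library was left out, but the call was held only without WT replicate 3 (adjusted p = 0.0346). Without WT replicate 1 or 2 the adjusted p was 0.0989 or 0.0636, and without CKO replicate 2, 3 or 4 it was 0.157, 0.144 or 0.152. In each of these 5 fits limma called 0 genes of any kind. Their unadjusted p was under 0.05 for 971 to 1278 genes in the upward direction and for 1409 to 1729 in the downward direction.

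The enzyme genes among the 8 comprised 2 that were higher at GV, Sqle and Dhcr7, and 2 that did not enter the GV table. Sqle encodes squalene epoxidase, the first oxygen-requiring step of sterol synthesis. At GV it had 464, 678 and 796 normalized counts in WT and 1393, 1475 and 1944 in CKO, with no overlap and a log2 fold change of 1.31 (SE 0.28) in the authors' deposited table. Its MII values were 192, 135 and 227 in WT and 409, 279 and 616 in CKO. The groups again did not overlap, but CKO replicate 3, resting on 110 reads, came near the WT range. The limma estimate there was 1.19 on the log2 scale (SE 0.53), and the gene was not called.

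Dhcr7 encodes the reductase that makes cholesterol from 7-dehydrocholesterol. At GV its WT libraries held 726, 1280 and 1459 normalized counts and its CKO libraries 2725, 2675 and 2982, again without overlap. The authors' deposited table gave a log2 fold change of 1.28 (SE 0.28). At MII the WT libraries held 1327, 869 and 65.6 and the CKO libraries 1497, 2258 and 1262. CKO replicate 4 lay below WT replicate 1, so the groups overlapped, and WT replicate 3, with 128 reads, was far under the rest. The limma log2 difference of 1.93 (SE 0.94) fell to 0.59 without WT replicate 3, so that library decided its size.

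Hmgcs1, which encodes the cytosolic synthase that commits acetyl-CoA units to mevalonate, was not selected into the GV table. At MII it had 5887, 6606 and 14334 normalized counts in WT and 10527, 8793 and 13797 in CKO. WT replicate 3 was the highest of all 6 libraries, and the groups overlapped. The limma log2 difference was 0.40 (SE 0.38), or 0.80 without WT replicate 3. Lss encodes lanosterol synthase, which closes the sterol rings, and was likewise not selected at GV. Its MII values were 7209, 5353 and 6894 in WT and 4492, 5509 and 4151 in CKO, with CKO replicate 3 inside the WT range. Its limma log2 difference was -0.46 (SE 0.28), and neither gene was called.

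The control genes among the 8 split as well, and Srebf2 was the gene that went down. At GV Srebf2 had 5451, 5093 and 7380 normalized counts in WT and 2444, 3139 and 3210 in CKO, with no overlap. The log2 fold change in the authors' deposited table was -1.03 (SE 0.20), just past the 2-fold limit for entering that table. In MII libraries it had 2418, 2492 and 1792 in WT and 1693, 1431 and 1313 in CKO. These groups also did not overlap, although CKO replicate 2 lay close under WT replicate 3. The limma estimate there was -0.59 on the log2 scale (SE 0.31), which was not called.

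Insig1 and Scap, the sterol-sensing partners of SREBP2, were not selected at GV and differed little at MII. Insig1 had 5051, 5238 and 6667 normalized counts in WT and 5913, 7201 and 6237 in CKO, and the groups overlapped. Its limma log2 difference was 0.20 (SE 0.27). Scap had 49740, 44734 and 41666 in WT and 66528, 67300 and 48070 in CKO. Its CKO replicate 4 lay inside the WT range, and the limma log2 difference was 0.41 (SE 0.29). Neither was called.

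**Figure D2:**
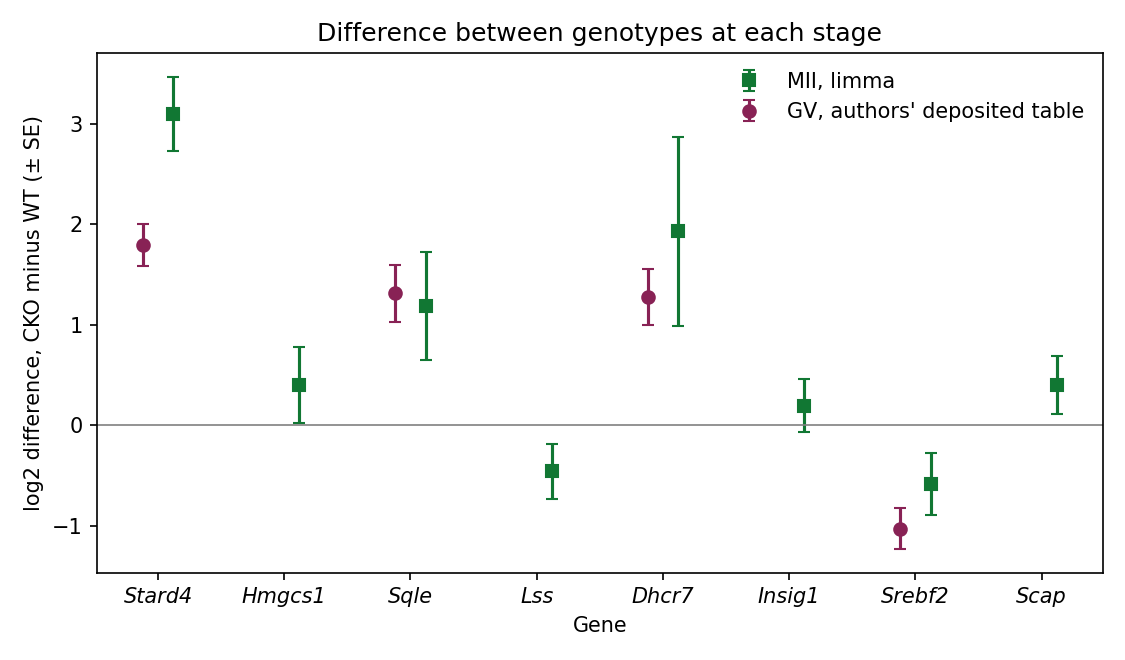
Difference between genotypes (log2, CKO minus WT, bars are SE) for each gene, from the authors' deposited table at GV (circles, 4 genes) and from limma at MII (squares, 8 genes). Stard4 lies highest at both stages, at 1.80 and 3.10, and Srebf2 lies below 0 at both.

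Counted together, 3 of the 8 genes were higher and 1 was lower at GV in the authors' deposited table (adjusted p under 0.05, change over 2-fold), where 4.96% of the 21462 tested genes were higher and 7.89% lower. All 4 had no overlap between genotypes, as had 91.4% of the genes called there. For the other 4, absence from the table means only that they were not selected. At MII, 2 of the 8 genes (Stard4 and Sqle) lay above and 1 (Srebf2) below WT without overlap, beside 10.4% and 12% of all tested genes, and the median log2 difference was 0.40 over the 8 genes and -0.11 over all tested genes. The 4 genes of the GV table had the same sign of difference at MII. The share of all genes of that table that kept their sign is not given here, so nothing is read from this.

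**Figure D3:**
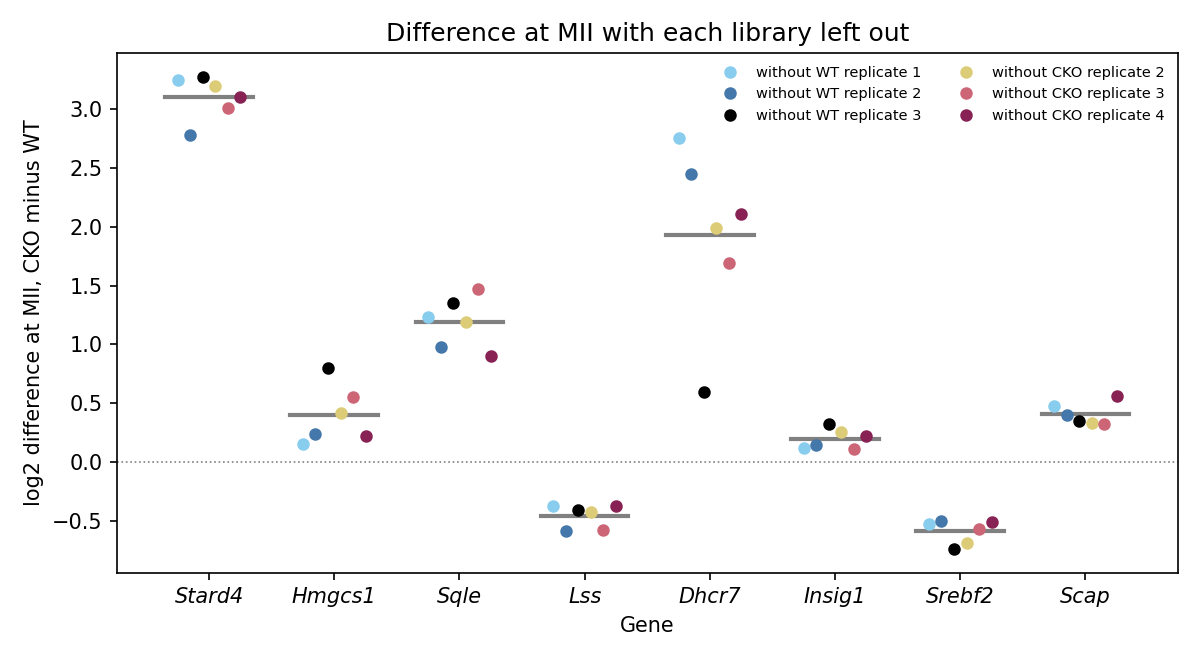
Limma log2 difference at MII (CKO minus WT) of each gene with all 6 libraries (grey line) and with 1 library left out (points). Without WT replicate 3, Dhcr7 dropped from 1.93 to 0.59 and Hmgcs1 rose from 0.40 to 0.80, while Stard4 stayed between 2.78 and 3.28.

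Per kb of transcript, Scap, Hmgcs1, Insig1 and Lss were the 4 most abundant of the 8 genes in mature eggs of both genotypes. In WT at MII, Scap stood first with 10736 normalized counts per kb, followed by Hmgcs1 with 2582, Insig1 with 2096 and Lss with 1390. Srebf2 had 440 per kb, Dhcr7 268, Stard4 94.7 and Sqle 66.9. The ranges over the 3 WT libraries overlapped for the neighbours Hmgcs1 and Insig1, Srebf2 and Dhcr7, Dhcr7 and Stard4, and Stard4 and Sqle. Neighbours elsewhere in the order did not overlap. Among 15053 protein-coding genes, the level per kb of Stard4 was at percentile 48.0 in WT and 79.5 in CKO, and that of Scap at 98.6 and 99.1. In CKO, Stard4 held place 5 of the 8 in each library, with 781 per kb, and its range overlapped that of Dhcr7 (594 per kb) but not that of Lss (1011 per kb). Stard4 held place 7, 7 and 6 in WT replicates 1, 2 and 3.

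Outside the 8 genes, 106 gene symbols of cholesterol and lipid supply were listed, of which Cert1 and Col4a3bp are 2 symbols of 1 gene. At GV 5 of them were higher and 6 lower in the authors' deposited table, beside 12.9% of all tested genes in either direction. In the mevalonate arm 3 of 9 were higher, none was lower and 6 were not called. Fdps, the farnesyl diphosphate synthase gene, had 1260, 1941 and 1725 normalized counts in WT and 3252, 3747 and 3455 in CKO, and a log2 fold change of 1.09 (SE 0.21, adjusted p = 2.7e-06 in the authors' deposited table). Acat2, the acetyl-CoA acetyltransferase gene at the head of the pathway, had 652, 596 and 566 in WT and 1567, 1354 and 1014 in CKO, and a log2 fold change of 1.12 (SE 0.25) in the authors' deposited table. Both genes had no overlap between genotypes. The third, Idi2, was listed at 0 in all WT libraries and in CKO replicate 1 and rested on 24 and 185 reads in the other two CKO libraries, so its genotypes overlapped. In the sterol arm none of the 10 other genes was called at GV. With the 8 genes counted in, 3 of 10 were higher in the mevalonate arm and 2 of 13 (Sqle and Dhcr7) in the sterol arm, and the difference between the arms was not tested.

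At MII limma called none of the 93 other genes tested, beside 1.51% of all genes. At an unadjusted p under 0.05, 6 were higher and 10 lower, beside 16% of all tested genes in either direction, and limma-voom on recovered reads also called 0. In the authors' deposited table, 6 were called higher and 6 lower, beside 4.1% and 6.45% of its tested genes. The smallest limma adjusted p in the mevalonate arm belonged to Ggps1, which makes geranylgeranyl diphosphate, at -1.55 on the log2 scale (SE 0.61, adjusted p = 0.251). In the sterol arm it belonged to Hsd17b7, which encodes a ketosteroid reductase of the pathway. Hsd17b7 had 2146, 2279 and 2492 normalized counts in WT and 3519, 5712 and 6026 in CKO, without overlap. Its limma log2 difference was 1.10 (SE 0.31, adjusted p = 0.113). The authors' deposited table called 2 of the 9 other sterol arm genes higher and 0 lower at MII, beside the same 4.1% and 6.45%. These were Hsd17b7 (log2 fold change 1.14, SE 0.32) and Nsdhl (1.21, SE 0.35). That source called none of the other mevalonate genes at MII. The median log2 difference was 0.29 over the 9 other sterol arm genes tested and -0.18 over the 8 other mevalonate genes, beside -0.11 over all genes. Fdft1, the squalene synthase gene between the arms, was the most abundant enzyme gene per kb, at 23385 normalized counts per kb in WT. Its libraries held 110883, 101030 and 47523 in WT and 167947, 127622 and 76602 in CKO, with overlap, and it was named after its values were seen.

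**Figure D4:**
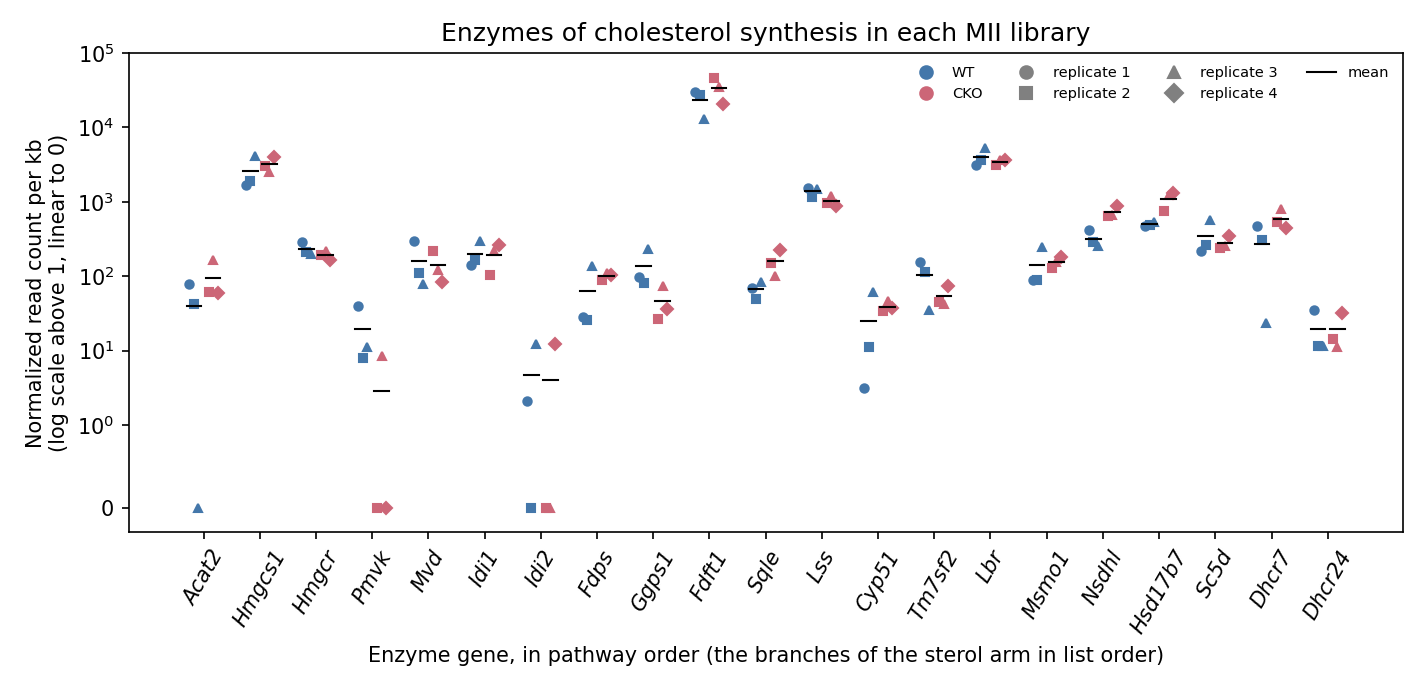
Normalized read count per kb of the longest transcript (log scale above 1, linear down to 0) for the enzyme genes of cholesterol synthesis in each MII library, WT in blue and CKO in red, with a marker shape per replicate number and a line at the group mean. Scatter among the WT libraries is wide for low genes such as Acat2, Cyp51 and Idi2, and Sqle, Nsdhl and Hsd17b7 have every CKO point above every WT point.

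Of 12 other genes of SREBP processing and sterol sensing, 3 were lower and none was higher at GV in the authors' deposited table, beside 7.89% lower and 4.96% higher of all tested genes. At MII that source called 1 higher (Erlin2) and 2 lower (Rnf139 and Rnf145), beside 4.1% and 6.45%. Rnf139 encodes a ubiquitin ligase of the endoplasmic reticulum membrane. It had 14133, 9210 and 11162 normalized counts in WT and 2950, 3185 and 3740 in CKO at GV (log2 fold change -1.81, SE 0.19, adjusted p = 1.7e-18 in the authors' deposited table). Mature eggs had 7624, 6133 and 4361 in WT and 1626, 3112 and 2461 in CKO. The limma estimate there was -1.34 on the log2 scale (SE 0.35, adjusted p = 0.0915). Rnf145, the gene of a related sterol-responsive ligase, had 1132, 1076 and 776 in WT and 137, 283 and 399 in CKO at GV, a log2 fold change of -1.87 (SE 0.42) in the authors' deposited table. The limma estimate at MII was -2.37 on the log2 scale (SE 0.62, adjusted p = 0.0947).

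Srebf1, the gene for the SREBP form that mainly drives fatty acid synthesis, was lower at GV as Srebf2 was. It had 7796, 6424 and 10774 normalized counts in WT and 4636, 3561 and 3859 in CKO, a log2 fold change of -1.05 (SE 0.22, adjusted p = 2.0e-05) in the authors' deposited table. At MII it had 11863, 10672 and 8592 in WT and 6003, 5302 and 4421 in CKO. Its limma log2 difference was -0.98 (SE 0.28, adjusted p = 0.113), and without WT replicate 3 it was -1.11 (adjusted p = 0.0494). Erlin2, which encodes an endoplasmic reticulum protein of INSIG and reductase turnover, had the smallest p of this list at MII. It had 117, 227 and 182 in WT and 719, 537 and 846 in CKO, without overlap. The limma estimate was 2.02 on the log2 scale (SE 0.49, adjusted p = 0.0767), and the gene was not selected at GV.

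Of the uptake genes, the lipoprotein receptor gene Scarb1 was lower at both stages in the authors' deposited tables, and limma did not call it at MII. Scarb1 encodes the receptor for selective uptake of cholesterol from high-density lipoprotein. At GV it had 2947, 3124 and 3546 normalized counts in WT and 1018, 757 and 1051 in CKO, a log2 fold change of -1.77 (SE 0.20, adjusted p = 1.5e-16) in the authors' deposited table. The MII libraries held 1456, 1202 and 1044 in WT and 405, 337 and 371 in CKO, and the limma estimate was -1.72 on the log2 scale (SE 0.37, adjusted p = 0.0538). The authors' deposited table called it lower there too, at a log2 fold change of -1.73 (SE 0.30). The limma value was the smallest adjusted p among the 93 genes, and without WT replicate 3 it was 0.0346. Of the other 10 uptake and lysosomal export genes, 9 were tested at MII and none was called there by limma or in the authors' deposited table, and none was selected at GV.

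The START domain is the lipid-binding fold of STARD4. Among the other genes with it, limma called none of the 12 tested at MII, beside 1.51% of all tested genes. The authors' deposited table called none of the 15 listed symbols at GV, beside 12.9% of all tested genes in either direction. Their median log2 difference at MII was -0.08. Without overlap, 3 lay above and 1 below WT at MII, beside 10.4% and 12%. The limma log2 difference of Stard9, a gene named outside the naming rule given below, was 3.05 (SE 1.65). It had 75.4, 140 and 0 normalized counts in WT and 151, 175 and 229 in CKO. Its log2 fold change at MII in the authors' deposited table was 1.37 (SE 1.44), and it was not called there. Of 20 further sterol transfer genes, 2 were lower at GV in the authors' deposited table, beside 7.89% of all tested genes, and 3 were lower at MII (Vapa, Tspo and Osbpl1a), beside 6.45%. Tspo was at 0 in every CKO library at MII and rested on 20, 11 and 243 reads in WT. Osbpl1a, which encodes an oxysterol-binding protein relative, had a log2 fold change of -1.56 (SE 0.27, adjusted p = 1.4e-07) and its relative Osbpl5 one of -1.04 (SE 0.42, adjusted p = 0.04997) in the authors' deposited table. The median log2 difference of the 19 sterol transfer genes tested at MII was -0.69, beside -0.11 over all genes, and Vapa, which encodes an anchor for such proteins on the endoplasmic reticulum, had the smallest p (log2 difference -2.39, SE 0.74, adjusted p = 0.143).

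Of 15 genes of esterification, efflux and oxysterols, 2 were higher at GV in the authors' deposited table and none was lower, beside 4.96% and 7.89% of all tested genes. Cyp46a1 encodes the cholesterol 24-hydroxylase. It had 413, 499 and 484 normalized counts in WT and 826, 1119 and 1111 in CKO, a log2 fold change of 1.13 (SE 0.25, adjusted p = 8.3e-05) in the authors' deposited table. Cyp7b1, the oxysterol 7-alpha-hydroxylase gene, had a log2 fold change of 1.06 (SE 0.39, adjusted p = 0.0266) in the authors' deposited table. Soat1, which encodes the enzyme that esterifies cholesterol for storage, had the smallest p at MII (log2 difference -0.69, SE 0.41, adjusted p = 0.443), and its groups overlapped. None of the 14 fatty acid synthesis genes was called at GV, and at MII the authors' deposited table called 3 higher (Acly, Acaca and Gpam) and 0 lower, beside 4.1% and 6.45% of its tested genes. Gpam was at 0 in every WT library and in CKO replicate 3 at MII, and rested on 77 and 73 reads in CKO replicates 2 and 4. Acly, which makes the cytosolic acetyl-CoA that feeds both pathways, had 4039, 4476 and 2577 normalized counts in WT and 9474, 8155 and 7627 in CKO at MII. Its limma log2 difference was 1.22 (SE 0.30, adjusted p = 0.0819), and 0.98 (adjusted p = 0.0455) without WT replicate 3.

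**Figure D5:**
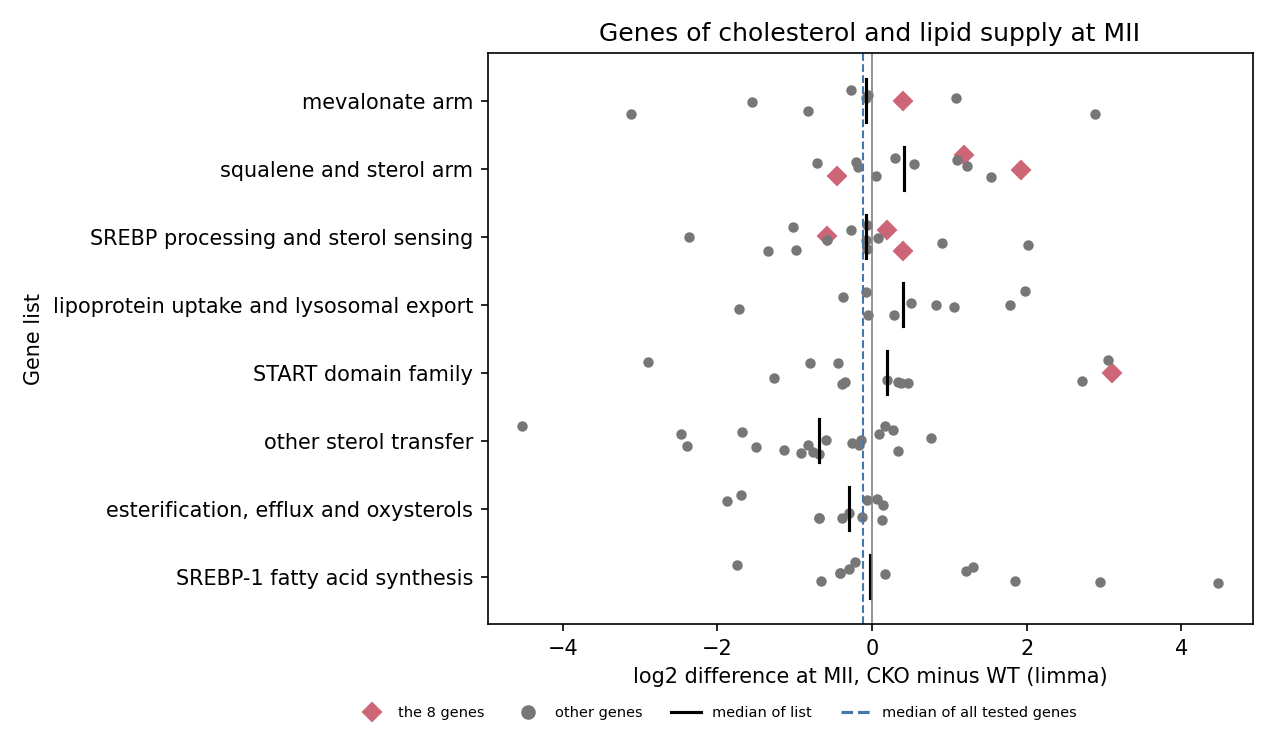
Limma log2 difference at MII (CKO minus WT) of every tested gene, by list, with the 8 genes as red diamonds, other genes as grey circles, a black line at the median of each list and a dashed line at the median of all tested genes (-0.11). Stard4 is the rightmost gene of the START domain family, at 3.10, and the vertical scatter within a list carries no information.

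The genes whose MII profile was most like that of Stard4 lay outside the cholesterol lists. Over the 6 MII libraries, Pearson's r of the log2 values with Stard4 was 0.996 for Lrba, 0.987 for Map3k4, 0.985 for Slc4a1ap, 0.983 for Pabpc1 and 0.982 for Clpx. Of 6642 genes compared, 231 had r of at least 0.9, so a likeness of this size was common in 6 libraries that fall into 2 genotypes. Pabpc1, the cytoplasmic poly(A)-binding protein gene, and Clpx, a mitochondrial protease subunit gene, were also in the GV table, with log2 fold changes of 3.13 and 1.01 in the authors' deposited table.

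Markers of other cells were set beside these results because cumulus cells make cholesterol. Of 22 cumulus and granulosa markers, 14 had MII values, and their summed level was 2668 to 5246 normalized counts in WT and 3228 to 4432 in CKO. Of the 13 tested, limma called none, beside 1.51% of all tested genes, and 9 had a positive difference. At an unadjusted p under 0.05, 3 were higher and 0 lower, beside 16% of all tested genes in either direction. Without overlap, 4 were higher (Fshr, Inhba, Ptgs2 and Nr5a2) and 0 lower, beside 10.4% and 12% of all tested genes. The median log2 difference of the list was 0.58, beside -0.11 over all genes. Fshr, the follicle-stimulating hormone receptor gene, had 34.2, 4.79 and 0 normalized counts in WT and 157, 96.2 and 90.9 in CKO. Nr5a2, the most abundant of the list, averaged 1701 in WT and 2545 in CKO. Cyp19a1 had 734, 918 and 3071 in WT and 774, 354 and 997 in CKO, with overlap. Amh, Hsd17b1 and Has2 were at 0 in every CKO library, and Cyp11a1 and Nr5a1 were at 0 in every WT library. None of the 22 was selected at GV. Of 13 theca, stroma and endothelium markers, 6 had MII values, summing to 3691 to 4757 in WT and 4496 to 5133 in CKO. At GV 3 of them were selected, summing to 186 to 469 in WT and 0 to 3.41 in CKO. Only genes that differed between genotypes entered the GV table, so these markers were bound to differ. The rest of the list has no GV values, and nothing is read from the GV sums. Of 14 blood and immune markers, 6 had MII values, summing to 1118 to 1989 in WT and 194 to 255 in CKO. C1qb made up most of the WT sum, averaging 1482 in WT and 147 in CKO. Of the 5 tested, limma called 1 lower, beside 0.991% of all tested genes. Cd68 had 21.2, 7.18 and 66.1 in WT and 95.0, 20.3 and 60.6 in CKO. Ptprc and Cd3e were at 0 in every CKO library, but reached only 3.59 and 13.6 in WT. At GV C1qb and Cd68 were selected, again because each differed, and summed to 1825 to 2162 in WT and 1026 to 1129 in CKO. Cd68 went the other way there, with 104, 101 and 79.5 in WT and 282, 180 and 347 in CKO. The part of these markers in the differences above was not tested. The 12 oocyte markers with MII values summed to 698722 to 1086248 in WT and 707830 to 821735 in CKO. That was far above the sum of any other marker list in each MII library. None of the oocyte markers was selected at GV. Sums over chosen markers do not measure the share of RNA from a cell type.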

How the data were processed

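RNA of 12 oocyte libraries was analysed from 2 tables, 1 per stage, each comparing CKO with WT. The aligner, counter, strand setting, genome build and annotation count as not given in the sources used here. The authors deposited log10 values per gene and library, namely log10(normalized count + 1), and the mean signal over 6 libraries. Per the file headers, the tables also held log2 fold changes, their standard errors, the score of the authors' test and its p-value, raw and adjusted. Each deposited value was turned back into a normalized count, and the mean over libraries matched the deposited mean signal. Every value was a whole number of reads times 1 step per library (100% within 0.05 of a whole number), which gave the reads behind each value.

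The 8 genes and all lists were chosen with earlier results of these data known. At MII, limma 3.58.1 under R 4.3.3 was run, trend option on, for log2(normalized count + 1), a pseudocount of 1, over 20388 genes with a mean of at least 1, and adjusted by the Benjamini-Hochberg method; the procedure was tested on simulated data. On that scale the pseudocount shrinks differences of the lowest genes, while a library at 0 can enlarge them. Acat2, at 0 in WT replicate 3 at MII, had a log2 difference of 2.88, beside 1.23 in the authors' deposited table. At GV the authors' deposited table held 3475 genes, all with an unadjusted p under 0.05 and over 2-fold, so no fit was made there. Genes named outside the 8 were up to 4 called per list and stage with the smallest p, or the 1 with the smallest p at MII where none was called, and the 5 most like Stard4 where the mean reached 500 normalized counts, leaving out predicted gene models and pseudogenes. Alternatives were array weights, limma-voom on the recovered reads, library-size scaling, no filter, a pseudocount of 0.1, the authors' test, the replicate number as a block, and fits that left 1 library out. Lengths came from the longest transcript in GENCODE vM21. Exons of Hmgcs1, Lss and Scap overlap an antisense or unclassified gene by 12.1%, 3.53% and 13.2% of their bases, so their reads could include those of the partner. No pairing of libraries by replicate number was seen, but the shared numbers were too few to decide it.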

Additional observations from a re-analysis of the deposited data

Results flagged for a closer look

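Cyp46a1, the cholesterol 24-hydroxylase gene, moved in opposite directions at the 2 stages, with every CKO library above every WT library at GV and below it at MII. Its log2 difference was 1.12 at GV and -0.69 at MII. At MII it had 659, 862 and 593 normalized counts in WT and 421, 327 and 585 in CKO, so CKO replicate 4 and WT replicate 3 nearly met, and limma did not call it (SE 0.42, adjusted p = 0.449). The difference between the stages was not tested.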

How the results depend on the processing

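Over all genes at MII, limma called 106 higher and 202 lower. Array weights gave 1297 and 1893, the authors' deposited test 658 and 1034, and limma-voom 91 and 80, with a median log2 difference of 0.02 instead of -0.11. Leaving out 1 library gave 0 to 266 higher and 0 to 624 lower. With a replicate block over the 4 libraries of numbers 2 and 3, 0 genes were called in either direction, and without the block, an alternative chosen after seeing the data, the same 4 libraries also gave 0. At an unadjusted p under 0.05 these fits had 523 higher and 1005 lower with the block, and 979 and 1475 without it. No pairing by number was seen, with correlations of deviations from -0.01 to 0.02 at GV and of 0.03 and -0.13 at MII. These rest on 3 shared numbers at GV, over selected genes, and 2 at MII, which is too few to decide whether libraries were paired.

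Of the 8 genes, limma called 1 higher and 0 lower at MII. Array weights called 2 higher, Stard4 and Sqle, and 1 lower, Srebf2. The replicate block and the same 4 libraries without it called 0, and leaving out 1 library gave 0 to 1 higher and 0 to 0 lower. Of the other pathway genes, array weights called 5 higher and 9 lower, and the authors' deposited test 6 and 6. Leaving out 1 library gave 0 to 1 higher and 0 to 3 lower. The calls came without WT replicate 3, with Acly higher and Scarb1, Srebf1 and Tspo lower, and Tspo (limma adjusted p = 0.0386) was named after its values were seen. In that fit Tspo rested on 20 and 11 reads in WT, against 0 in the shallower CKO libraries. At GV no call among the 8 genes changed at an adjusted p under 0.01, and with a 4-fold limit 0 were higher and 0 lower.

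The difference of Hmgcs1 at MII turned to -0.016 over the 4 libraries, with and without the replicate block. Among named genes that limma did not call, Idi2 turned to 0.75 with array weights and ran from -2.44 to 0.35 when 1 library was left out. Cyp7b1 turned to -0.41 over the 4 libraries with and without the replicate block and to -0.16 without WT replicate 2, and ran from -0.32 (without CKO replicate 4) to 0.52 (without WT replicate 3). The cause was not tested. The replicate block kept the direction of the other 7 genes. Genes under about 100 reads in a CKO library, such as Rnf145 and Osbpl1a at MII, are limited by depth.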
